A study of Mus musculus with 4 samples.

Results

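The genes described are 9 genes of fatty acid uptake and lipid droplets, Lpl, Fabp3, Fabp5, Plin2, Plin3, Soat1, Ch25h, Scd2 and Pparg, chosen by gene symbol among the 32372 gene features of the deposited count matrices. They were followed in microglia and other myeloid cells (CD11b+/CD45+, isolated by FACS from the left hemisphere of the brain) in 4 single-cell libraries (10x Genomics, 3′ v3.1). Of these, 2 libraries are labelled APP/PS1:miR-155 cKO, a conditional deletion of the microRNA gene miR-155 in microglia, and 2 are APP/PS1 Control. APP/PS1, a transgene pair that makes mice deposit amyloid as in Alzheimer's disease, was present in every mouse, so no library shows mice without amyloid. All were labelled female and 4 months old. The labels call the libraries biological replicates, and they give neither the Cre driver nor the deleted part of the locus. Where a group has 2 values, that of replicate 1 stands before that of replicate 2.

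Microglia near amyloid plaques leave their resting state and switch on a program of lipid handling and phagocytosis, which is often followed by Clec7a, Itgax and Cst7. Fatty acids enter such cells after lipoprotein lipase cleaves triglycerides, binding proteins carry them through the cytosol, and what is not burned is stored as triglyceride and cholesteryl ester in droplets coated by perilipins. PPARγ is a nuclear receptor that is activated by fatty acids and switches on uptake and storage genes in macrophages and fat cells.

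A barcode was taken as a cell from 1000 UMIs and 500 genes upward, with mitochondrial UMIs up to 10%, which left 13940 cells in all and between 2852 and 4351 per library. A UMI (unique molecular identifier) marks 1 captured transcript. The deposited totals ran from 33130800 to 47574406 UMIs per library, the median depth from 6158 to 7236 UMIs per cell, and any pair of libraries shared at most 4 cell barcodes. P2ry12 and Tmem119, which mark microglia, stood at 2071 to 2653 and 945 to 1326 CPM (UMIs of a gene scaled to equal library totals) over the cells of a library. Cx3cr1, another microglia marker, was at 2256 and 2670 CPM in cKO against 4561 and 3776 CPM in Control. The part of this difference in the genotype values below was not tested. Mir155hg, the host transcript of miR-155, had 1 and 1 UMIs in cKO against 7 and 11 UMIs in Control. Xist, the transcript of the inactive X chromosome, was at 1876 and 1828 CPM in cKO replicates 1 and 2, at 0.625 CPM in Control replicate 1 and at 1787 CPM in Control replicate 2, so Control replicate 1 lacks the Xist level of the other libraries labelled female. The Y-linked genes Ddx3y, Eif2s3y, Uty and Kdm5d had 0 to 4 UMIs each in every library, Control replicate 1 included. The run code in the deposited names of cKO replicate 2 differs from that of the other 3 libraries. Genotype results are therefore also given without each of those libraries.

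The sequence of miR-155-5p is shown because it sets which transcripts the microRNA could pair with directly. RefSeq (GRCm38.p6) places the mature strand at chr16:84714143-84714165, plus strand, inside Mir155hg. It is printed 5′ to 3′ with its seed, bases 2 to 8, in capitals.
mmu-miR-155-5p: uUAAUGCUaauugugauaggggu
The reverse complement of the seed is AGCATTA, and it was searched for on the transcript strand of the longest annotated 3′ UTR of each gene (GENCODE M21, GRCm38). Among the 9 genes, Lpl and Soat1 each held 1 such match and the other 7 held none, against 9.19% of the 11586 tested genes with a 3′ UTR. The Lpl match begins at base 227 of a 3′ UTR of 2428 bases and is printed with 10 bases on each side, at chr8:68904723-68904749, plus strand. The Lpl gene itself spans chr8:68880491-68907448. The Soat1 match begins at base 3895 of a long 3′ UTR of 6534 bases and is printed likewise, at chr1:156427148-156427174, minus strand, within a gene at chr1:156424525-156474331. In both, capitals mark the match to the seed.
Lpl: caggtcttccAGCATTAgaagacagca
Soat1: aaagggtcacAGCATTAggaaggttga
These letters describe a possible pairing and measure no binding.

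To compare members at equal depth, each cell was thinned at random to 2000 UMIs, which left out 1057 shallower cells. A cell with a UMI of Clec7a, Itgax or Cst7 after thinning was called positive, and a cell with none was called negative. The 4 libraries then held 4126 positive and 8757 negative cells. Because Clec7a, Itgax and Cst7 only set the gate, none of the 9 genes took part in it. Before thinning, positive cells were deeper, with medians of 9581 to 11347 UMIs against 5701 to 7105 UMIs in negative cells. Their median mitochondrial share was 2.39% to 3.34%, against 1.79% to 2.34% in negative cells. The part of depth and RNA quality in the differences that follow was not tested beyond this thinning.

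All 8 members that could be tested rose in positive cells, and they did so by very different amounts. Fabp5, Ch25h, Fabp3 and Lpl rose by log2 fold changes of 5.14, 5.0, 4.51 and 3.55, while Plin2, Scd2, Soat1 and Plin3 rose by 1.44, 1.39, 0.75 and 0.45. Positive and negative cells were compared with edgeR's quasi-likelihood test on raw, unthinned UMIs summed per library and state, with the library as a block. Thinned counts only set the gate here, so these folds and the ranks below are not at equal depth. Benjamini-Hochberg adjusted p-values of the 8 members ran from 4.4e-15 to 0.00036. All 8 also rose and passed when thinned UMIs were summed. The state moved a large share of all genes, since 25.7% of 13062 tested genes were higher and 50.1% passed in either direction, so passing the test is no mark of these genes. Their sizes differed more. By log2 fold change Fabp5 ranked 14, Ch25h 17, Fabp3 35 and Lpl 69 among 13062 genes, while Plin2 ranked 422, Scd2 445, Soat1 1181 and Plin3 1978. The gate gene Cst7, whose rank the gate itself sets, was at 12.

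Lpl, the lipoprotein lipase that releases fatty acids from circulating triglycerides at the cell surface, was the most widely detected member in positive cells. At 2000 UMIs per cell, positive cells with an Lpl UMI made up 35.2% and 32.6% in cKO against 42.3% and 40.7% in Control. Negative cells with an Lpl UMI made up 3.50% and 3.02% in the cKO libraries and 4.81% and 5.19% in the Control libraries. No negative value came near a positive one. Positive cells with Lpl held about the same number of its UMIs in each library, between 2.05 and 2.13 of 2000. Averaged over libraries, TMM-scaled levels were 415 ± 59.5 CPM in positive against 35.8 ± 8.90 CPM in negative cells (SD, n = 4 libraries each), and the log2 fold change was 3.55 (SE 0.05).

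**Figure D1:**
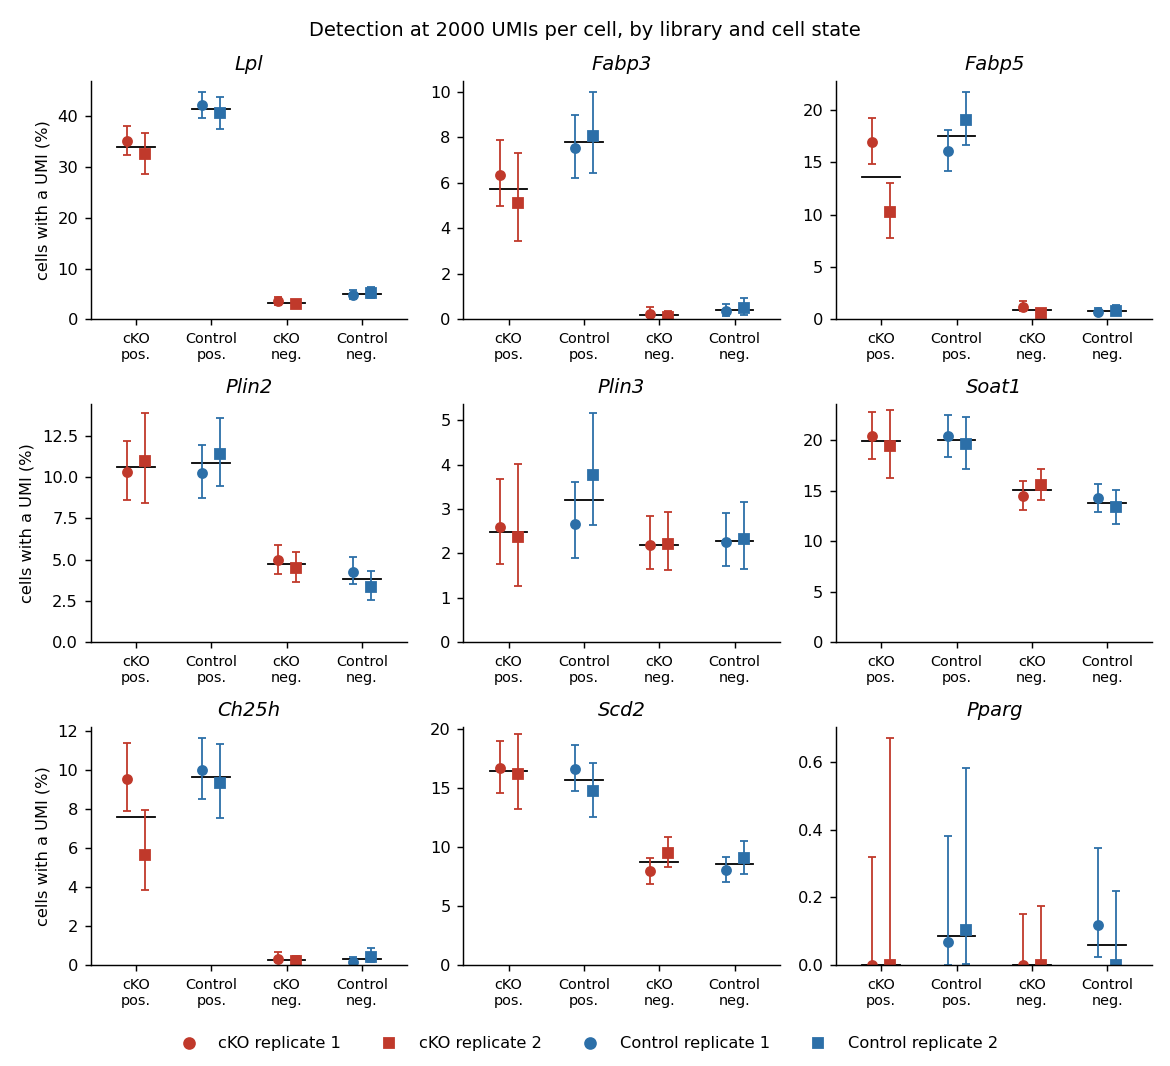
Cells with a UMI of each gene (percent, linear axis from 0) after thinning to 2000 UMIs, for positive (pos.) and negative (neg.) cells; symbols are libraries, error bars exact 95% binomial intervals of counting error, and black lines the means of 2 libraries. Lpl lies between 32.6% and 42.3% in positive cells and between 3.02% and 5.19% in negative cells, while for Plin3 the libraries lie between 2.37% and 3.77% in positive and between 2.18% and 2.33% in negative cells, with overlapping intervals.

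Fabp5 and Fabp3 encode small cytosolic proteins that carry fatty acids between membranes, enzymes and nuclear receptors. Fabp5 was detected in 17.0% and 10.2% of positive cells in cKO against 16.0% and 19.0% of positive cells in Control. In negative cells it was detected in 1.19% and 0.567% in the cKO libraries and 0.710% and 0.775% in the Control libraries. Positive cells thus held Fabp5 at 28.4 to 44.7 times the CPM of negative cells of their own library, and cKO replicate 2 had the lowest positive share. Fabp3 was rarer, at 6.31% and 5.10% of cKO against 7.51% and 8.05% of Control positive cells. Its negative shares were 0.247% and 0.0945% in cKO against 0.355% and 0.477% in Control, 2 to 9 cells per library. The CPM ratio of positive to negative cells for Fabp3, 18.9 to 57.8, therefore rests on a few negative cells. Levels averaged 175 ± 44.6 CPM for Fabp5 and 39.2 ± 9.82 CPM for Fabp3 in positive cells (SD, n = 4 libraries). In negative cells they averaged 4.85 ± 0.843 and 1.74 ± 0.608 CPM (SD, n = 4 libraries).

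Plin2 and Plin3 encode perilipins, proteins of the droplet surface; perilipin 2 is bound to droplets nearly all the time, while perilipin 3 also occurs free in the cytosol. Plin2 was detected in 10.3% and 10.9% of positive cells in cKO against 10.2% and 11.4% in Control. Negative cells gave 4.94% and 4.49% in cKO against 4.26% and 3.34% in Control, so the states did not overlap and CPM was 2.3 to 3.12 times higher in positive cells. Plin3 was at 2.60% and 2.37% of cKO against 2.66% and 3.77% of Control positive cells. In negative cells Plin3 was at 2.18% and 2.22% in cKO against 2.25% and 2.33% in Control. Its binomial intervals overlapped between the states in each library, and its rise (log2 0.45, SE 0.08, adjusted p = 0.00036 by edgeR) was measured on the summed raw UMIs, where levels were 15.3 ± 2.83 CPM in positive against 11.1 ± 1.56 CPM in negative cells (SD, n = 4 libraries each).

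Soat1 and Ch25h both act on cholesterol. Soat1 esterifies it for storage in droplets, and Ch25h makes 25-hydroxycholesterol, an oxysterol signal known from activated macrophages. Soat1 was found in nearly equal shares of positive cells, 20.4% and 19.5% in cKO against 20.4% and 19.7% in Control, and in 14.5% and 15.6% of cKO against 14.2% and 13.4% of Control negative cells. It was thus common in both states, with a rise of 1.30 to 1.54 times in CPM. Ch25h was found mostly in positive cells, with 9.52% and 5.65% of cKO against 9.97% and 9.31% of Control positive cells. In negative cells it was found in 0.329% and 0.189% in cKO against 0.158% and 0.417% in Control, 4 to 8 cells per library. Its CPM ratio ran from 21.2 to 77.4 between libraries, the widest range of the 8 genes.

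Scd2, a desaturase that turns saturated into monounsaturated fatty acids and is the common form in brain, was detected in 16.7% and 16.2% of cKO against 16.7% and 14.7% of Control positive cells. Negative cells had 7.95% and 9.54% in cKO against 8.05% and 9.06% in Control. The states were apart in each library, and CPM was 1.86 to 2.27 times higher in positive cells. Pparg, the gene of PPARγ, was too low to test. Over all cells it had 3 UMIs and 1 UMI in cKO against 11 and 8 UMIs in Control, found in 7 and 5 Control cells. A count of 3 corresponds to 0.0900 and 0.115 CPM in the cKO libraries and 0.0782 and 0.118 CPM in the Control libraries, so both cKO libraries were at or under that floor. At this depth no statement about its state or genotype can be made. Counted genes on the opposite strand overlap Fabp3, Ch25h and Pparg, so part of their UMIs could belong to those if strand was not used in counting.

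For 7 of the 8 tested members, mean detection climbed with each further gate gene in a cell; the exception was Plin3. Averaged over libraries, Lpl was found in 4.13%, 26%, 48.6% and 60.6% of cells with 0, 1, 2 and 3 gate genes. For Fabp5 these shares were 0.812%, 7.27%, 22.5% and 35.8%, for Ch25h 0.273%, 4.71%, 11.8% and 17.8%, and for Fabp3 0.293%, 4.10%, 8.49% and 15.8%. Soat1 and Scd2, already frequent without gate genes, reached 27.3% and 25.4% in cells with all 3. The top class was small, with 82 and 41 cells in cKO against 107 and 75 cells in Control. Plin3 was found in 2.24%, 2.71%, 3.03% and 2.88% of cells with 0, 1, 2 and 3 gate genes, so it did not climb at the last step. In the top class Plin2 ranged from 10.3% to 22% and Plin3 from 0% to 5.33% between libraries. The mean number of the 9 genes detected per cell was 2.10 and 1.95 in cKO against 2.04 and 2.05 in Control cells with all 3 gate genes. It was 0.349 and 0.357 in cKO against 0.350 and 0.349 in Control cells with none.

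**Figure D2:**
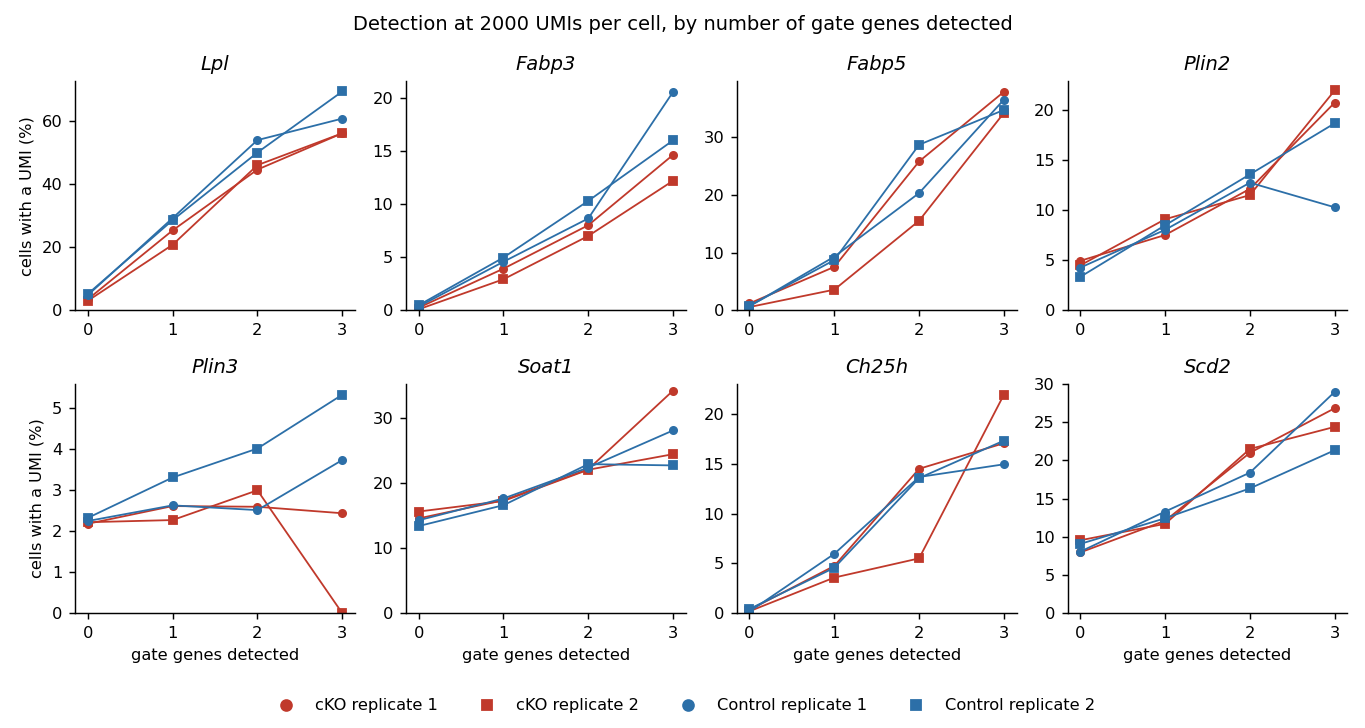
Cells with a UMI of each gene (percent, linear axis from 0) at 2000 UMIs per cell, by how many of Clec7a, Itgax and Cst7 were detected; each line is a library. Lpl climbs to between 56.1% and 69.3% in cells with all 3 gate genes, and the class with 3 holds 41 to 107 cells per library.

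Transcripts outside cells bear on the low values in negative cells. Barcodes of at most 100 UMIs, which mostly hold free RNA, gave a profile from which the detection at 2000 UMIs was calculated for each library. A droplet whose 2000 UMIs all came from free RNA would hold Lpl in 16.8% and 12.4% of cases in cKO against 24.3% and 22.8% in Control. Negative cells were below that in all 4 libraries, and the same held for Fabp3, Fabp5, Ch25h and Scd2. A cell with a small share of free RNA lies below such a droplet whatever it expresses, so this alone does not show a gene to be at background. Over the 4 libraries, negative cells held Scd2 at 65.2% to 85.5% of its CPM in free RNA, Lpl at 22.7% to 33.5%, Fabp3 at 12.8% to 18.6%, Fabp5 at 4.36% to 20.2% and Ch25h at 3.78% to 15.2%. In each library Scd2 and Lpl stood above the other 3. How much of the negative-cell level of any of these 5 genes was free RNA was not tested. In positive cells all 8 tested members were detected more often than free RNA would give in 4 of 4 libraries. Soat1 and Plin3 were also above it in negative cells of all 4 libraries, and Plin2 in the negative cells of both cKO libraries.

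The sort could also hold other cell types that use these genes. Summed over the 8 border macrophage markers, all found among the features, levels were 5.46 to 23.8 CPM in positive and 4.25 to 13.4 CPM in negative cells. The 6 monocyte markers summed to 10.9 to 53.6 CPM in positive and 15.5 to 37.9 CPM in negative cells, and Lyve1 of the border macrophage list was at 0 in every thinned library. Choroid plexus markers were higher in positive cells of all 4 libraries. Their sum in positive cells was 362 and 208 CPM in cKO against 537 and 163 CPM in Control, and in negative cells 0.206 and 85.7 CPM in cKO against 478 and 34.6 CPM in Control. Neutrophil markers summed to 0.865 and 526 CPM in positive cells of cKO against 1.37 and 0 CPM in those of Control. In negative cells they summed to 243 and 2.36 CPM in cKO against 159 and 0.894 CPM in Control, and at most 2 barcodes in any library held 2 or more of them. Without barcodes holding 2 or more markers of 1 class other than microglia, the log2 fold changes were 3.56 for Lpl, 5.19 for Fabp5, 4.58 for Fabp3 and 4.99 for Ch25h. That filter took out 150 and 96 barcodes in cKO against 166 and 78 in Control. Of these, 75 and 59 in cKO against 70 and 39 in Control held 2 or more B cell markers. Oligodendrocyte markers accounted for 46 and 27 in cKO against 58 and 27 in Control, and monocyte markers for 12 and 1 against 11 and 2. Ighm of the B cell list was at 241 to 283 CPM over the cells of each library. The part of each other cell type in these folds was not tested. Each gate gene alone put some positive cells among the negative ones. It gave smaller folds, down to 1.96 for Lpl, 2.68 for Fabp5, 2.19 for Fabp3 and 1.88 for Ch25h with Itgax alone, and all 8 genes still passed.

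Other genes of lipid metabolism were set beside the members in 6 lists with 77 genes, of which 65 were tested and none is a member. Of these, 29 rose, 12 fell and 24 did not pass in positive cells. Over all 13062 tested genes 25.7% rose and 24.4% fell, the shares to set beside the counts of each list. The median log2 fold change was 0.14 over the 65 genes, against -0.03 over all tested genes and 2.50 over the 8 members. Members and lists were chosen with earlier results of these data known, so the gap between their medians is partly set by that choice. Fatty acid synthesis and desaturation moved most, with 8 of 10 genes up, 1 down and a median of 0.56. Acaca, the acetyl-CoA carboxylase that commits carbon to fatty acids, was at 49.1 ± 6.45 CPM in positive against 8.03 ± 0.293 CPM in negative cells (log2 2.60, SE 0.07). Insig1, a sterol sensor that restrains SREBP, was at 35.5 ± 4.73 CPM in positive against 12.6 ± 1.18 CPM in negative cells (log2 1.48, SE 0.06). Fasn, the fatty acid synthase, was at 12.9 ± 1.5 CPM in positive against 5.77 ± 0.559 CPM in negative cells (log2 1.17, SE 0.10). These values are means with SD over 4 libraries, and each of the genes passed with edgeR.

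**Figure D3:**
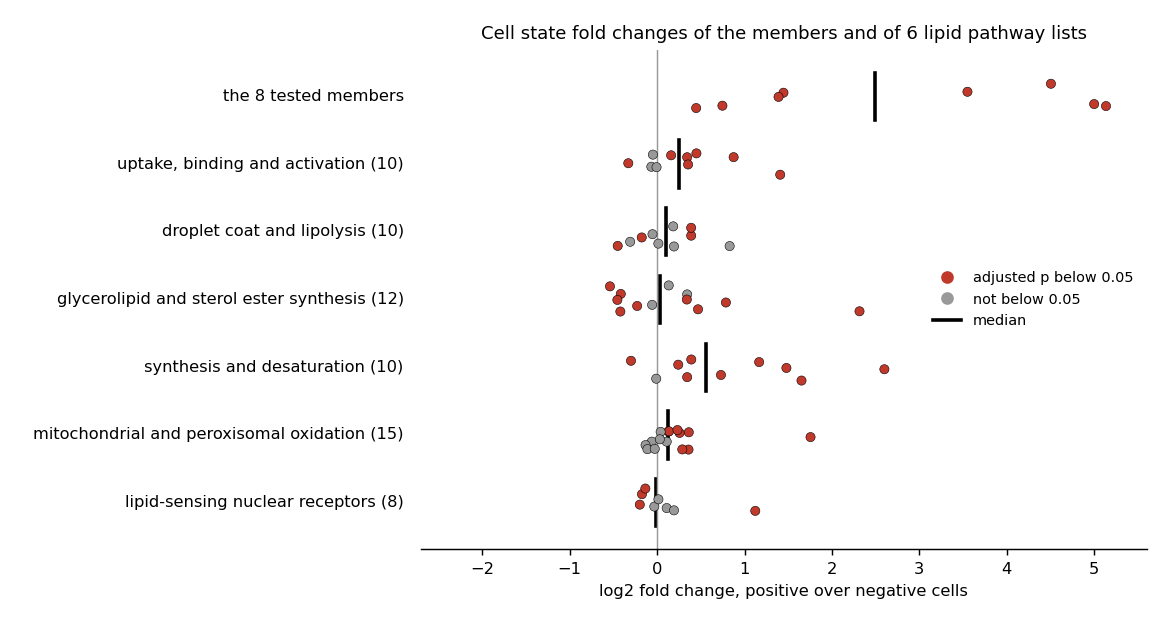
Log2 fold changes of positive over negative cells for the 8 tested genes described here and for 6 lists of other lipid genes, with the number tested in brackets; each point is a gene (vertical spread within a row is random), red points passed at an adjusted p of 0.05, and bars are medians. The medians are 2.50 for the 8 genes and 0.56 for synthesis and desaturation, the highest of the 6 lists. Genes and lists were chosen with earlier results of these data known.

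In the list of uptake, binding and activation genes 6 of 10 rose and 1 fell. Dbi, which binds acyl-CoA, was at 146 ± 19.7 CPM in positive against 79.1 ± 3.56 CPM in negative cells (log2 0.87). Among the acyl-CoA synthetases that activate fatty acids, Acsl5 rose (log2 0.35) and Acsl1 fell (log2 -0.33). Droplet coat and lipolysis genes moved little, with 2 of 10 up and 2 down. Lipa, the lysosomal acid lipase, and Bscl2, the seipin of droplet assembly, both rose by log2 0.39, and Mgll, the monoacylglycerol lipase, fell by 0.45 on the log2 scale. In glycerolipid and sterol ester synthesis 4 of 12 rose and 5 fell. Nceh1, which hydrolyses cholesteryl esters in macrophages and so opposes Soat1, was at 98 ± 16.2 CPM in positive against 19.6 ± 3.24 CPM in negative cells (log2 2.32, SE 0.06). The lysophospholipid acyltransferases Lpcat2 and Lpcat3 fell by 0.42 and 0.46 on the log2 scale.

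Oxidation genes rose in 8 of 15 cases and none fell, mostly by small amounts. Hadha and Acadl, both of mitochondrial beta-oxidation, rose by log2 0.36 each, and the acyl-CoA thioesterase Acot1 rose by 1.75 at a low level of 3.36 ± 0.729 CPM in positive against 0.951 ± 0.403 CPM in negative cells (SD, n = 4 libraries). Of 8 tested lipid-sensing nuclear receptors and partners, 1 rose and 3 fell. These were Rxrb, Rxra and the coactivator subunit Med1, lower by 0.20, 0.17 and 0.14 on the log2 scale, so Pparg's partners moved little where Pparg itself could not be tested.

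Members were also detected together more often than their separate shares would give. For each pair of the 8 genes other than Pparg, the odds ratio of both having a UMI in a cell was computed in each library at equal depth, as a description with no test. Over all cells, 22 of 28 pairs were above even odds in 4 of 4 libraries, and all 6 pairs among Lpl, Fabp3, Fabp5 and Ch25h were, with a median log2 odds ratio of 2.83. That set of 4 was picked after seeing the values. The share of such pairs among other genes was not counted, over all cells or in positive cells, so these counts do not set the members apart. Fabp3 and Fabp5 were found together in 111 cells, where their separate shares would give 19.5, and Lpl and Ch25h in 246 cells, where they would give 64.5. Plin3 was near its expected count with Lpl (51 cells, with 48.2 expected), Fabp5 (16, with 18.4 expected), Fabp3 (8, with 7.78 expected) and Soat1 (52, with 51.1 expected). It was above even odds in all 4 libraries with Plin2 (30 cells, with 19.9 expected) and Ch25h (15, with 9.86 expected), and in 3 of 4 with Scd2 (48, with 34.6 expected). The constant added to each count of an odds ratio can lift rare pairs above even odds. In negative cells Fabp3 and Fabp5 had 0 joint cells, with 0.209 expected, yet were above even odds in 4 of 4 libraries. Over all cells, the lowest expected count in a library was 0.788 for Plin3 with Ch25h and 0.394 for Fabp3 with Ch25h. The part of this constant in the pair counts and odds ratios was not tested.

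Because members differed between states, pairs were also counted within positive cells alone, with the same constant added, whose part was not tested. There 16 of 28 pairs were above even odds in every library, and the median log2 odds ratio over pairs was 0.58, against 1.02 over all cells. This count depended on depth and gate, since it was 10 of 28 at 1000 UMIs, with 2 of the 6 pairs among Lpl, Fabp3, Fabp5 and Ch25h, 13 of 28 with at least 2 gate genes, with 4 of those 6, and 21 of 28 at 4000 UMIs, with all 6. Fabp3 and Fabp5 had a median log2 odds ratio of 1.85 in positive cells (1.44 to 2.57 over libraries), against 3.49 over all cells. Lpl and Ch25h gave 1.60 (1.07 to 2.26) in positive cells, Fabp5 and Ch25h 1.5 (1.35 to 1.81), and Fabp5 and Scd2 0.99 (0.92 to 1.36). Lpl and Fabp5, the most frequent pair of the 4, stood lower, at 0.71 (0.35 to 0.89). Positive cells with at least 3 of the 9 genes made up 13.8% and 9.65% in cKO against 14.1% and 13.9% in Control, and negative cells 0.247% and 0.331% in cKO against 0.395% and 0.358% in Control. Across cells, Lpl was most like Cst7, Clec7a and Apoe, with median Pearson correlations over the 4 libraries of 0.43, 0.41 and 0.40 among 7655 candidate genes. For Plin2, Soat1 and Scd2 no gene reached 0.20, and the other members were too rare for this measure.

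**Figure D4:**
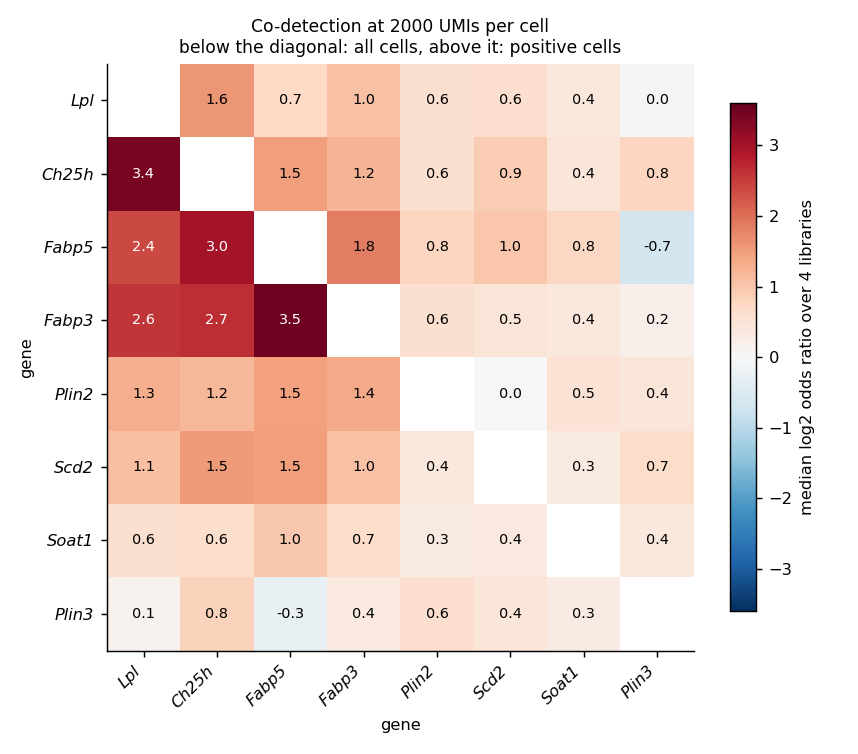
Median log2 odds ratio over 4 libraries of 2 genes having a UMI in the same cell at 2000 UMIs, over all cells below the diagonal and in positive cells above it; red means together more often than expected. Fabp3 with Fabp5 (3.49 over all cells, 1.85 in positive cells) and Lpl with Ch25h (3.42 and 1.60) are the strongest, and Plin3 lies near 0 with Lpl.

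Whether these genes differ between cKO and Control libraries was asked first over all cells. Each of the 8 tested members had a negative fitted fold change, from -0.83 for Fabp3 and Fabp5 to -0.11 for Soat1. The median over all 13607 tested genes was 0.0065, and the share of all genes with a negative value was not counted. None of the 8 passed (lowest adjusted p = 0.30 with edgeR's quasi-likelihood test, all 13607 genes). In that comparison 0 genes passed (0.0%), with 987 at an unadjusted p under 0.05, and DESeq2 called 24. Lpl was at 151 and 114 CPM in cKO against 218 and 238 CPM in Control. Neither cKO library reached either Control library, but how many of all genes show such a gap was not counted. The Lpl log2 fold change was -0.78 (SE 0.13, unadjusted p = 0.00024 and adjusted p = 0.30 with edgeR). DESeq2 gave an adjusted p of 1.7e-06. In such sums over all cells, fewer cells of a state and less RNA per cell cannot be told apart. With edgeR, leaving out 1 library moved the Lpl call. Its log2 fold change was -0.59 (adjusted p = 0.036) without cKO replicate 2, -0.85 (adjusted p = 0.027) without Control replicate 1, -1.0 (adjusted p = 2.6e-05) without cKO replicate 1, and -0.71 (adjusted p = 0.10) without Control replicate 2.

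Fabp5 was at 69.7 and 32.4 CPM in cKO against 78.6 and 104 CPM in Control. Fabp3 was at 16.5 and 6.92 CPM in cKO against 19.2 and 23.0 CPM in Control. For Ch25h the values were 28.2 and 12.8 CPM in cKO against 29.0 and 34.3 CPM in Control. In all 3 genes cKO replicate 1 lay under both Control libraries and cKO replicate 2 further under them. How many of all genes show such a gap was not counted. Without cKO replicate 2, that is within the shared run code, log2 fold changes were -0.39 for Fabp5, -0.34 for Fabp3 and -0.16 for Ch25h. Without Control replicate 1 they were -1.03, -0.96 and -0.74, and in neither case did any of the 3 pass. Without cKO replicate 1, which leaves the low cKO library alone and assumes that it varies like the Control libraries, they were -1.49, -1.60 and -1.30 and all 3 passed (adjusted p-values of 1.8e-05, 1.5e-05 and 1.7e-05 with edgeR). In free RNA, Fabp5 was at 43.5 and 14.1 CPM in cKO against 65.0 and 103 CPM in Control. Plin2, Plin3, Soat1 and Scd2 stood at -0.20, -0.26, -0.11 and -0.27 with standard errors of 0.13, 0.17, 0.08 and 0.09, and Plin2 was at 0.02 when cells were thinned to 2000 UMIs. Soat1, the other gene with a seed match beside Lpl, was at 99.9 and 90.4 CPM in cKO against 101 and 104 CPM in Control. Plin2 (-0.45, adjusted p = 0.021) and Scd2 (-0.34, adjusted p = 0.046) passed with edgeR without cKO replicate 1.

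The share of positive cells differed between libraries as well. Of all cells of at least 2000 UMIs, 32.2% and 20.6% were positive in the cKO libraries against 36.6% and 36.3% in the Control libraries. Mean shares were thus 26.4% ± 8.24 for cKO against 36.5% ± 0.230 for Control libraries (SD, n = 2 in either group), which differ by -10.1 points, with an exact two-sided permutation p of 0.333, the smallest that 2 libraries against 2 can give. Leaving out cKO replicate 2 gave -4.23 points, and leaving out Control replicate 1 gave -9.89 points. A single UMI of a gate gene makes a cell positive, and free RNA held gate genes as well. In free RNA, Cst7 was at 351 and 142 CPM in cKO against 547 and 510 CPM in Control. Clec7a was at 127 and 72.3 CPM in cKO against 154 and 185 CPM in Control. The part of free RNA in these shares, and in the fixed-mix values that follow, was not tested. When each library was given the same share of positive cells, the Lpl level at 2000 UMIs was 131 and 121 CPM in cKO against 161 and 163 CPM in Control, a log2 ratio of -0.36. With the observed shares the log2 ratio was -0.72. Both values have the same exact p of 0.333, and without cKO replicate 2 they were -0.30 and -0.44. For Fabp5 the log2 ratio was -0.41 at a fixed mix (exact p = 0.667) and -0.77 with the observed shares, and at a fixed mix it was -0.08 without cKO replicate 2. Plin2 went the other way at a fixed mix, with 39.5 and 37.7 CPM in cKO against 33.2 and 31.8 CPM in Control, a log2 ratio of 0.25 (exact p = 0.333). That direction turned at 1000 UMIs per cell, where the cKO minus Control difference was -4.46 CPM.

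Within positive cells none of the 8 members passed, and 1 of 12352 genes did (0.0081%). Lpl was at 327 and 359 CPM in cKO against 408 and 442 CPM in Control. The groups did not overlap, a gap not counted over all genes. The Lpl log2 fold change was -0.31 (SE 0.09, adjusted p = 0.56 with edgeR). It was -0.38 without cKO replicate 2 and -0.37 without Control replicate 1, and passed in neither. Fabp5 was at 162 and 114 CPM in cKO against 160 and 210 CPM in Control, which overlap, at -0.41 (SE 0.16, adjusted p = 0.65 with edgeR). Without Control replicate 1 the Fabp5 value was -0.60 (adjusted p = 0.003 with edgeR), and without cKO replicate 2 it was -0.19 (adjusted p = 0.98). Fabp3 and Plin3 were at -0.36 (SE 0.17) and -0.22 (SE 0.17). The other 4 lay closer to no difference, with Plin2 at -0.0035 (SE 0.10), Soat1 at -0.09 (SE 0.07), Scd2 at -0.11 (SE 0.08) and Ch25h at -0.12 (SE 0.13).

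Within negative cells 1 of 12950 genes passed (0.00772%) and no member did. Lpl was at 30.3 and 30.9 CPM in cKO against 44.2 and 49.5 CPM in Control, a log2 fold change of -0.61 (SE 0.08, adjusted p = 0.076 with edgeR and 0.017 with DESeq2). It was -0.63 without cKO replicate 2 and -0.69 without Control replicate 1, with adjusted p-values of 0.10 and 0.076. At 2000 UMIs per cell, the level in negative cells was 22.7% to 33.5% of that in free RNA over the libraries, and free RNA held Lpl at 92 and 66.4 CPM in cKO against 139 and 129 CPM in Control, a log2 ratio of group means of -0.76. The part of free RNA in the negative-cell difference was not tested. Whether the state effect differed by genotype was tested as an interaction, in which 4 of 13062 genes passed (0.0306%) and none of the 8 members did. The smallest adjusted p-values were 0.18 for Fabp5 (-0.60, SE 0.12) and 0.25 for Lpl (0.27, SE 0.06) with edgeR. Without cKO replicate 2 the Fabp5 value was -0.53 and that of Lpl 0.26, and without Control replicate 1 they were -0.59 and 0.29.

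**Figure D5:**
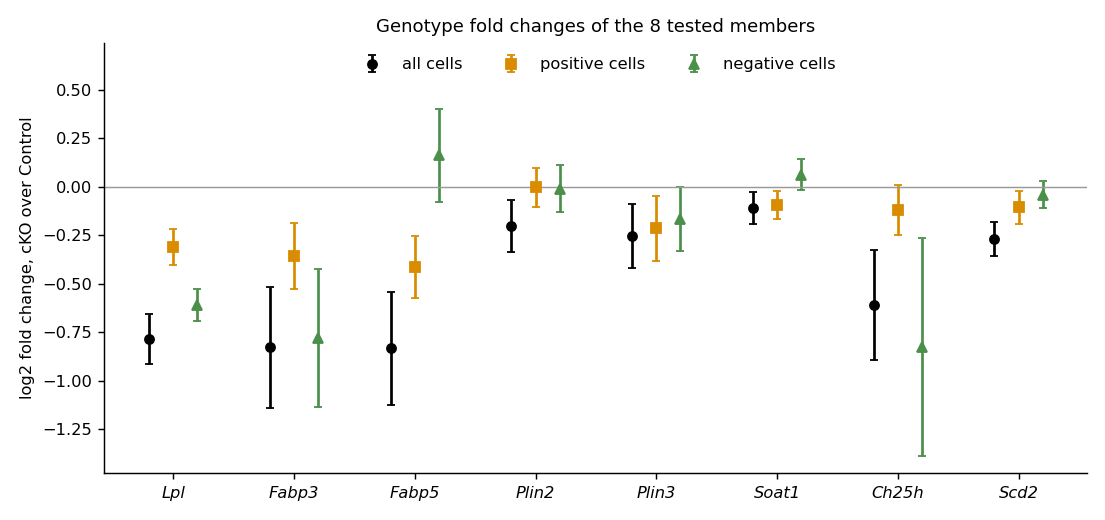
Log2 fold changes of cKO over Control with standard errors from edgeR, for the 8 tested genes in all cells, positive cells and negative cells (2 libraries per group). Lpl lies at -0.78, -0.31 and -0.61, and none of the points passed at an adjusted p of 0.05.

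Among the 65 tested genes of the 6 lipid lists, none passed between genotypes, and 25 had a positive fold change. Their median log2 fold change was -0.03, against 0.0065 over all 13607 tested genes. The share of all genes with a positive value was not counted. The smallest p in each list belonged to Dbi, Pnpla2, Nceh1, Insig1, Acot1 and Rxrb. Nceh1 was at 40.4 ± 14.2 CPM in cKO against 59.8 ± 3.43 CPM in Control (log2 -0.56, SE 0.19), and Dbi was at 94.1 ± 5.98 CPM in cKO against 117 ± 1.16 CPM in Control (log2 -0.32, SE 0.08; SD, n = 2 each). With edgeR their adjusted p-values were 0.68 and 0.596. Pnpla2, the lipase that starts droplet breakdown, was at 37.2 ± 5.51 CPM in cKO against 29.1 ± 2.17 CPM in Control (log2 0.35, SE 0.11, adjusted p = 0.68). Of other signals, heat-shock transcripts (Hspa1a, Hspa1b and Dnajb1 summed) were at 521 and 948 CPM in cKO against 352 and 266 CPM in Control, and in each library higher in negative than in positive cells. Border macrophage markers summed to 12.7 and 4.50 CPM in cKO against 8.13 and 12.3 CPM in Control, and monocyte markers to 43.0 and 16.7 CPM in cKO against 31.8 and 15.0 CPM in Control. Choroid plexus markers summed to 117 and 111 CPM in cKO against 500 and 81.1 CPM in Control, and neutrophil markers to 165 and 110 CPM in cKO against 101 and 0.570 CPM in Control. Leaving out barcodes with markers of another class gave -0.80 for Lpl over all cells. The part of these classes in the genotype values was not tested further, and that of heat-shock transcripts was not tested.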

How the data were processed

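Single-cell RNA was measured in 4 libraries, 2 cKO and 2 Control. Each deposited matrix gives, for every barcode before cell calling, the whole-number UMI counts of each gene, which the authors obtained with Cell Ranger 4.0.0 (build mm10) according to the submitters' processing notes. The other files (deposited barcode names and feature names) only label the matrix. The members and gene lists were chosen with earlier results of these data known.

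Doublets were left in for the reported values, since scrublet (scanpy 1.11.5, expected rate 0.04) called 1 cell by its own threshold; an alternative left out the highest scores, 0.8% per 1000 cells, 401 barcodes in all. UMIs summed per library were tested with edgeR 4.0.16 in R 4.3.3 (TMM, filterByExpr, quasi-likelihood F test, two-sided, adjusted p at 0.05 over all tested genes). The fits had 2 residual degrees of freedom for genotype and for the interaction and 3 for state. Standard errors are the absolute log2 fold change divided by the root of F. CPM beside a fit is TMM-scaled over raw sums, while CPM at 2000 UMIs comes from thinned cells, so levels differ between the 2 scales. Intervals are exact (Clopper-Pearson) at 95% and cover counting error only. Single values used exact permutation tests, and odds ratios added 0.5 to each cell of the table. In simulated genotype data, 97% of 100 genes changed by log2 1 were recovered over 13607 genes. Every simulated gene had the same spread between libraries, and the changed genes were drawn among the better counted ones. The rate therefore does not give the chance of detecting a change in the members.

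All 9 members were named. From each of the 6 lists, the 3 smallest p for state and the 1 smallest for genotype were named. Genes like a member were the 3 with the highest median correlation across cells, printed from 0.20, for members in at least 5% of cells. Alternatives covered normalization, DESeq2 1.42.0, filters, depth, gate, doublets, other cell classes, replicate number as a block and leaving out each library; for joint detection, depth, gate, doublets and other cell classes. Same-numbered libraries did not deviate together (correlations -0.13 over all cells, 0.0041 in positive and -0.12 in negative cells). Fabp3, Ch25h and Pparg overlap counted genes on the opposite strand, and how strand entered the counting is not given in the sources used here.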

Additional observations from a re-analysis of the deposited data

How the results depend on the processing

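All 8 tested genes were higher in positive cells and passed in 136 of 136 combinations of gene and alternative. The number of genes called for state was 6547, against 4243 with DESeq2, 3716 after thinning to 2000 UMIs and 3409 with Itgax alone as the gate. Genotype calls were few and unstable. Over all cells 0 genes passed, against 24 with DESeq2, 350 with no low-count filter, 7 after thinning, 4 without barcodes of another class, 4 from 2000 UMIs upward, and 26 to 613 with 1 library left out. In positive cells 1 passed, against 11 with DESeq2, 205 with no filter, 5 thinned, 7 without barcodes of another class, 12 without the highest scrublet scores, and 2 to 128 with 1 library left out. In negative cells 1 passed, against 5 with RLE scaling, 9 with DESeq2, 2 with no filter, 7 thinned, 2 without barcodes of another class, and 3 to 46 with 1 library left out. For the interaction 4 passed, against 2 with RLE scaling, 197 with no filter, 5 to 27 with 1 library left out, and 0 with no replicate block (241 at an unadjusted p under 0.05). With the replicate number as a block, 170, 61 and 34 genes passed for genotype in all, positive and negative cells. Lpl was then called over all cells and in negative cells, and Fabp3, Fabp5 and Ch25h over all cells; but the numbers share only a label, since same-numbered libraries did not deviate together. A crossed pairing, chosen after seeing the data, gave 56, 6 and 14 calls. With no filter, edgeR called Lpl, Fabp3, Fabp5 and Ch25h over all cells, Fabp3 and Fabp5 in positive cells, and Lpl and Fabp5 in the interaction. Over all alternatives, the crossed pairing included, Lpl passed in 7 of 14, Fabp5 in 4 of 14, Fabp3 and Ch25h in 3 of 14 and Plin2 and Scd2 in 1 of 14 over all cells, and Lpl in 3 of 12 in negative cells. Pairs above even odds in every library numbered 22 of 28 over all cells, against 17 at 1000 UMIs. In positive cells they numbered 16, against 10 at 1000 UMIs, 21 at 4000 UMIs and 13 with at least 2 gate genes. The causes of these changes were not tested.

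None of the values that changed sign was called, and the cause was not tested. For the log2 fold change by genotype, Plin2 was at 0.022, 0.073 and 0.31 thinned in all, positive and negative cells, at 0.0030 in positive cells without barcodes of another class, and at 0.019 in negative cells without the highest scrublet scores. Scd2 was at 0.025 in positive cells thinned. With 1 library left out, Plin2 ran from -0.45 to 0.0030 in all cells, from -0.17 to 0.12 in positive and from -0.15 to 0.13 in negative cells. Plin3 ran from -0.45 to 0.0070 in positive and from -0.39 to 0.027 in negative cells, Ch25h from -0.40 to 0.073 in positive and from -1.60 to 0.14 in negative cells, and Fabp5 from -0.066 to 0.37 in negative cells. For the interaction, Plin2, Plin3 and Scd2 were at 0.045, 0.044 and 0.045 with at least 2 gate genes, and Ch25h and Scd2 at -0.21 and 0.022 thinned. Its ranges with 1 library left out were -0.099 to 0.060 for Plin2, -0.24 to 0.12 for Plin3, -0.20 to 1.24 for Ch25h and -0.15 to 0.0070 for Scd2. The cKO minus Control difference in members per negative cell was -0.025 at 1000 UMIs and ran from -0.00084 to 0.0076 with 1 library left out. At a fixed mix, the cKO minus Control difference in CPM was -4.46 for Plin2, 0.895 for Plin3 and -5.36 for Scd2 at 1000 UMIs, -0.824 for Scd2 at 4000 UMIs, and -7.05 to 2.04 for Ch25h with 1 library left out. Depth limits Pparg, which was below the count filter, and the negative-cell values of Fabp3 and Ch25h, which rest on at most 9 cells per library.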
